A study of Homo sapiens with 18 samples.

Results

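The genes followed here encode the subunits that set 2 of the SWI/SNF chromatin remodelling complexes apart from the one that holds ARID1A. SWI/SNF complexes use ATP to slide and evict nucleosomes and exist in 3 forms: canonical BAF, PBAF and non-canonical BAF. ARID1A belongs to canonical BAF. ARID2, PBRM1, PHF10 and BRD7 mark PBAF, and BRD9, BICRA and BICRAL mark non-canonical BAF. The 7 genes were chosen by name, out of 19970 protein-coding genes on chromosomes 1 to 22 and X, and a peak counted for a gene if it touched the gene or the 10 kb to either side (the gene window).

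The data are CUT&Tag peak lists from A549, a human lung adenocarcinoma line. In CUT&Tag an antibody on chromatin directs a transposase to cut and tag the DNA beside it, and a peak is a stretch with many such cuts. Unmodified wild-type cells (WT), cells lacking YTHDF1 (YTHDF1-KO) and cells treated with siRNA against ARID1A (siARID1A) were each profiled with anti-ARID1A and with anti-YTHDF1, in 2 libraries per antibody and cell condition. YTHDF1 is a protein that binds RNA carrying the m6A modification. The comparisons ask how binding detected by each antibody differs when one of these proteins is removed or reduced. The labels do not say whether the knockout line is 1 clone, name no control siRNA, and do not tell whether the libraries of a group came from separate cultures, so the p-values describe only the scatter among these libraries, part of which can be technical. The IgG samples were not analysed here, nor was a combined knockout and knockdown condition that the study's design text names.

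The 6 anti-ARID1A lists held 71271 to 106882 peaks covering 99.0 to 266 Mb. The 6 anti-YTHDF1 lists held 40562 to 59632 peaks covering 49.3 to 89.6 Mb, and sequencing depth is unknown. The signal scale differs between libraries, so the measure compared is the share of a gene window that peaks cover, and signal is given as a percentile of the peak's total signal among all peaks of its own list. The ARID1A gene and the YTHDF1 gene each had peaks in 12 of 12 lists, which does not check the knockdown or the knockout. Of the epithelial and A549 marker genes, 7 of 8 had peaks in 12 lists and EPCAM in 10. Among 7 markers of other cell types, CD79A, COL1A1, PDGFRB, RBFOX3 and SNAP25 also had peaks in 12 lists, PTPRC in 3 and CD3E in 6, so peaks over these genes do not tell cell types apart.

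The starts of 4 member genes show the range of patterns found, and the 250 bases before them are printed from RefSeq (build GRCh38.p14), 5′ to 3′ on the gene's strand. Peaks lay within 1 kb of the first start of BICRA and the first start of BICRAL in all 12 lists. At an inner start of BICRAL they occurred with anti-ARID1A alone, at PHF10 in 2 lists, and at BRD7 in none. Capitals mark matches to the GC box (GGGCGG, or CCGCCC on the other strand) and to the CCAAT box (CCAAT, or ATTGG).
BICRA first start, chr19:47607946-47608195, plus strand: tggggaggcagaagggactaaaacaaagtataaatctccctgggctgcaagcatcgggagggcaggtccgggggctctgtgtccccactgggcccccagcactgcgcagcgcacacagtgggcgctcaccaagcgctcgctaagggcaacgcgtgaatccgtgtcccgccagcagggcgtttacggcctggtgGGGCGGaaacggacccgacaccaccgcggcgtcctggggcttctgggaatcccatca
BICRAL first start, chr6:42746737-42746986, plus strand: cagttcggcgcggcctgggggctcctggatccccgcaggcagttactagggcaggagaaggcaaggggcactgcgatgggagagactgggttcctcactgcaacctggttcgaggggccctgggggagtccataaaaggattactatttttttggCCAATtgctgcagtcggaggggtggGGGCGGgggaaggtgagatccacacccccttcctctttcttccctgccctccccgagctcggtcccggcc
BICRAL inner start, chr6:42781802-42782051, plus strand: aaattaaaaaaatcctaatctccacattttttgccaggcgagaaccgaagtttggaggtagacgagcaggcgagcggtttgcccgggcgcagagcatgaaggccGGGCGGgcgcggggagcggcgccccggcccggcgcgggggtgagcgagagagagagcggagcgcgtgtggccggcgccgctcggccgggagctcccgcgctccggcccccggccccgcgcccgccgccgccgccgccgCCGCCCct
PHF10 start, chr6:169724501-169724750, minus strand: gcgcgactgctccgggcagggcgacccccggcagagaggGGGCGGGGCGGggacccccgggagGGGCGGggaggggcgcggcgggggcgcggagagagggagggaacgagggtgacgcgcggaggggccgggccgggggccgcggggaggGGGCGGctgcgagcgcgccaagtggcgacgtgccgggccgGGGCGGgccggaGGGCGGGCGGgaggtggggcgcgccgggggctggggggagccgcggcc
BRD7 start, chr16:50368989-50369238, minus strand: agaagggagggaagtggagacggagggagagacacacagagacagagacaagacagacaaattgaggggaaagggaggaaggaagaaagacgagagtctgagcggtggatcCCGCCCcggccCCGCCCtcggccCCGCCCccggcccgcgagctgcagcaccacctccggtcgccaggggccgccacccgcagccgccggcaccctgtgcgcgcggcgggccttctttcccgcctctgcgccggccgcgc

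Base content is given beside the peaks as a description. The BRD7 stretch, with no peak in any list, is 70.8% G and C with 3 GC boxes, and the PHF10 stretch is 86.4% G and C with 7. The BICRA and BICRAL first starts, with a peak in every list, are 65.2% and 63.2% G and C and hold 1 GC box each. The inner BICRAL start is 73.2% G and C with 2 GC boxes. Among starts not printed, the PBRM1 starts were 83.6% and 63.6% G and C. They held 6 and 0 GC boxes, and each had peaks in 9 lists. The BRD9 starts were 77.2% and 76.8% with 3 and 1 GC boxes, and had peaks in 8 and 9 lists. The second BICRA start was 65.6% with 1 GC box and had peaks in 12 lists. The last BICRAL start was 48.4% with 0 GC boxes and had peaks in 0 lists. A link between base content and peaks was not tested. Across 22131 starts of protein-coding genes the median was 62% G and C, 53.7% of stretches held a GC box and 32.7% a CCAAT box. A match is a run of letters only, and binding of a factor was not measured. The promoter table matched 6 of the 7 members with 11 starts, and ARID2 is described from the lower of its annotated ends.

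**Figure D1:**
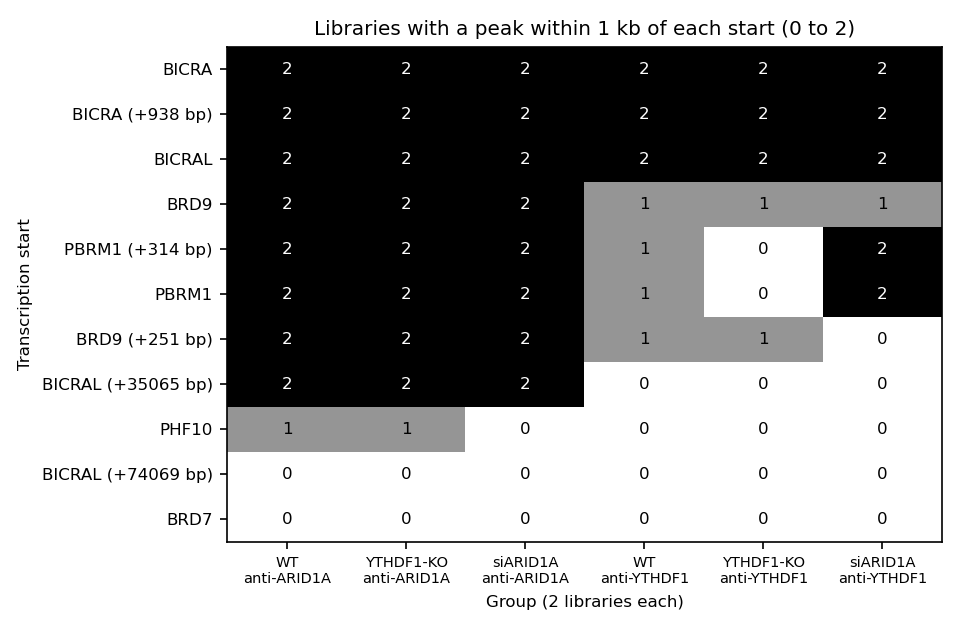
Libraries (0 to 2) with a peak within 1 kb of each of the 11 starts (rows, with the distance to the gene's first start in brackets), by antibody and cell condition (columns). Both BICRA starts and the first BICRAL start are at 2 in every column, the inner BICRAL start at +35065 bp is at 2 with anti-ARID1A and at 0 with anti-YTHDF1, and BRD7 is at 0 throughout.

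Counted over starts, 3 of the 11 had a peak in all 12 lists, beside 13.7% of all starts, and 2 of the 11 had none, beside 17.3%. With anti-ARID1A 8 of 11 starts had a peak in all 6 lists (background 52.3%), and with anti-YTHDF1 3 of 11 did (background 14%). The starts are not separate units. Those of BICRA lie 938 bp apart, those of PBRM1 314 bp and those of BRD9 251 bp. Their 1 kb windows overlap and can share a peak, so these genes can count more than once. Counted over gene windows, 4 of 7 members held a peak in all 12 lists (ARID2, BRD9, BICRA and BICRAL), beside 49% of the genes tested. All 6 anti-ARID1A lists held one for 6 of 7 members (background 80.4%), PHF10 being the exception, and all 6 anti-YTHDF1 lists for 4 of 7 (background 49.8%).

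Among the PBAF genes, ARID2, which encodes a large subunit with an ARID DNA-binding domain, had 1 site shared by all lists. It spanned chr12:45728519-45730089, from -1187 to 383 bp of the lower end of the gene (chr12:45729706-45908037), beside the non-coding gene LINC00938. Its peaks ranked at percentiles 89.8 to 95.6 with anti-ARID1A and 41.6 to 89.9 with anti-YTHDF1. Peaks covered 1.37% and 2.86% of the ARID2 window in WT, 2.32% and 2.67% in YTHDF1-KO and 2.32% and 1.46% in siARID1A cells with anti-ARID1A. With anti-YTHDF1 the values were 1.35% and 0.458% in WT, 0.793% and 0.469% in YTHDF1-KO and 1.59% and 1.73% in siARID1A cells. The 2 siARID1A anti-YTHDF1 libraries lay above both WT libraries, and the anti-ARID1A groups overlapped.

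PBRM1, the polybromo subunit that gives PBAF its name, lies on the minus strand at chr3:52545367-52685913, and its start adjoins that of GNL3. A peak within 1 kb of the start was present in 6 of 6 anti-ARID1A and 3 of 6 anti-YTHDF1 lists. Another site lay beyond the far end of the gene, at chr3:52535873-52537354 beside the starts of UQCC5 and NT5DC2, in 11 of 12 lists. Its peaks ranked at percentiles 83.1 to 93.3 with anti-ARID1A and 81.6 to 95 with anti-YTHDF1, and they cannot be assigned to PBRM1 over these neighbours. Inside the gene, 14325 to 15364 bp after the start, a stretch of 1040 bp was covered in all 4 WT and YTHDF1-KO anti-ARID1A lists at percentiles 69.2 to 86.6. It was covered in neither siARID1A anti-ARID1A list and in 0 of the 6 anti-YTHDF1 lists. That stretch was picked out for this pattern and carries no test. Peaks covered 5.37% and 4.51% of the PBRM1 window in WT, 3.11% and 3.84% in YTHDF1-KO and 1.94% and 2.81% in siARID1A cells with anti-ARID1A. The 3 cell conditions did not overlap with that antibody, which also held for BICRA. The share of all genes with such a separation of all 3 conditions was not computed. In comparisons with WT alone, both libraries lay below WT for 21.7% of all genes in YTHDF1-KO and 73.6% in siARID1A cells. Limma called PBRM1 in neither comparison. With anti-YTHDF1 coverage was 1.24% and 1.9% in WT, 2.15% and 0% in YTHDF1-KO and 1.70% and 2.48% in siARID1A cells, and the groups overlapped.

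PHF10, a subunit with PHD fingers, had the fewest peaks. Its window held a peak in 5 of 6 anti-ARID1A and 2 of 6 anti-YTHDF1 lists. With anti-ARID1A 7.82% and 4.57% was covered in WT, 7.93% and 2.59% in YTHDF1-KO and 0% and 4.36% in siARID1A cells. With anti-YTHDF1 0% was covered in all 4 WT and YTHDF1-KO libraries, and 1.92% and 3.57% in siARID1A cells. A peak at the start itself appeared in 1 WT and 1 YTHDF1-KO anti-ARID1A list, at percentiles 24.1 and 43.5. The recurrent anti-ARID1A peak lay beyond the 3′ end of PHF10 (chr6:169703902-169724500, minus strand), beside the starts of C6orf120 and WDR27. The 2 siARID1A anti-YTHDF1 peaks were at different places, chr6:169702079-169702856 and chr6:169699223-169700671, and did not overlap.

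BRD7, a bromodomain subunit, had peaks on both sides of the gene (chr16:50315957-50368988, minus strand) and none within 1 kb of its start in any list. The site shared by most lists, chr16:50310456-50310846, lay inside ADCY7, in 6 anti-ARID1A and 3 anti-YTHDF1 lists. Upstream, at -5516 to -4426 bp of the start, a stretch of 1091 bp was covered in all 4 WT and YTHDF1-KO anti-ARID1A lists at percentiles 78.1 to 82.5, and in neither siARID1A anti-ARID1A list, and peaks overlapped it in 2 anti-YTHDF1 lists. It too was picked out for its pattern. Peaks covered 16.0% and 14.6% of the BRD7 window in WT, 14.7% and 12.2% in YTHDF1-KO and 5.26% and 6.87% in siARID1A cells with anti-ARID1A. Both siARID1A libraries were below the other 4, which also held for PBRM1, BRD9, BICRA and BICRAL. The share of all genes with this pattern was not computed, and 73.6% of genes had both siARID1A libraries below both WT libraries. With anti-YTHDF1 coverage was 8.29% and 0% in WT, 8.32% and 1.52% in YTHDF1-KO and 4.61% and 2.62% in siARID1A cells, with wide scatter inside the groups.

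**Figure D2:**
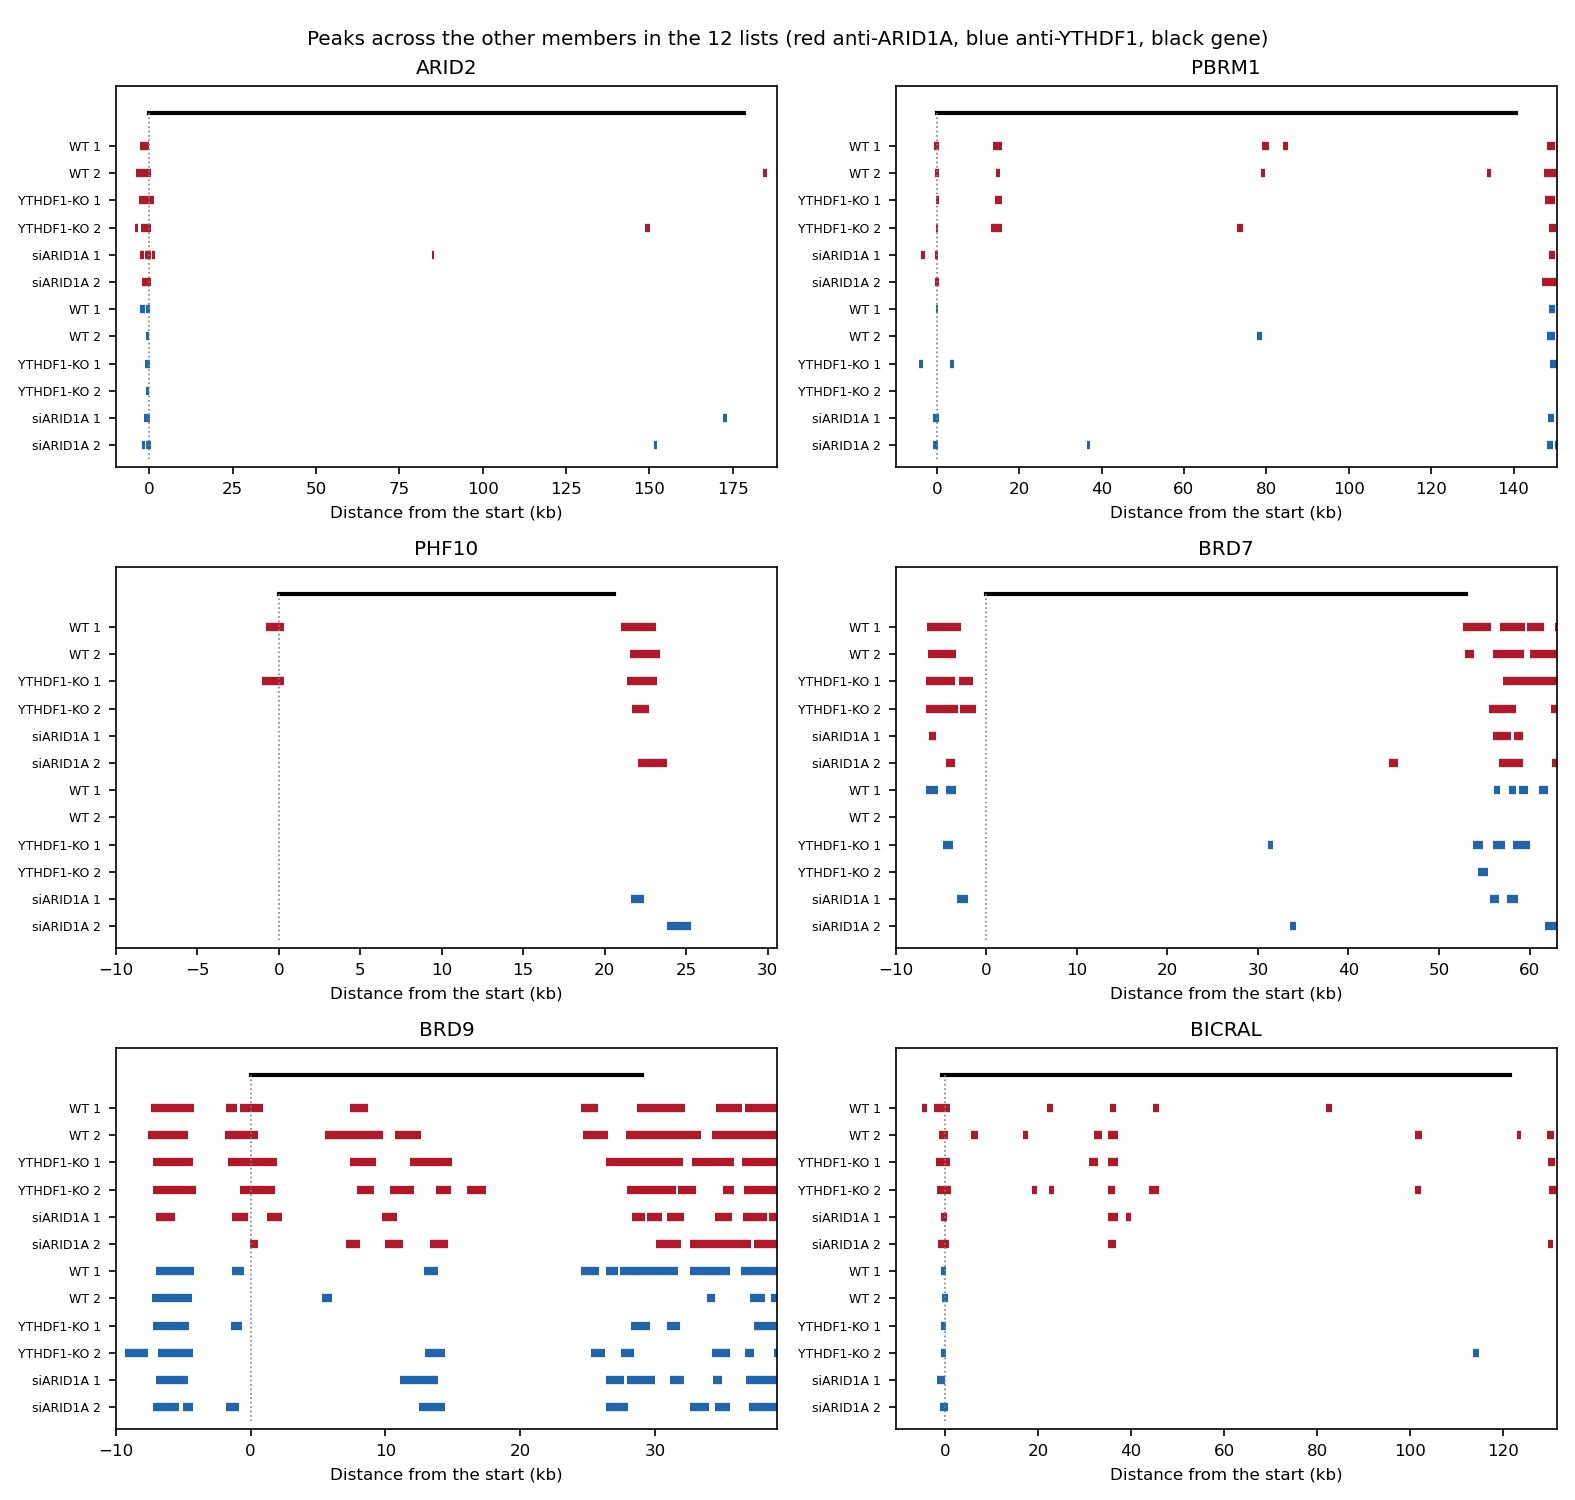
Peaks of the 12 lists (rows, red anti-ARID1A and blue anti-YTHDF1, numbered by library) against distance from the gene start in kb, over 6 members and 10 kb to either side; the black bar is the gene, and for ARID2 distance runs from its lower annotated end. ARID2 has 1 site shared by all 12 lists, the PHF10 and BRD7 peaks lie mostly outside the gene, and the blue BICRAL rows hold 1 or 2 peaks each.

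Among the non-canonical BAF genes, BRD9 is a bromodomain subunit related to BRD7, and its direction between the antibodies depended on the scaling. Covered length was higher with anti-ARID1A by a log2 difference of 0.72. With each library centred on its median gene the difference was -0.81, and the share of the list's signal was lower too. Peaks covered 32.9% and 48.6% of the BRD9 window in WT, 47.4% and 40.0% in YTHDF1-KO and 24.3% and 25.3% in siARID1A cells with anti-ARID1A. With anti-YTHDF1 coverage was 35.0% and 12.1% in WT, 15.5% and 20.4% in YTHDF1-KO and 25.9% and 24.2% in siARID1A cells. In coverage the antibodies overlapped. The window's share of all peak signal in its list was 0.969 to 1.85 millionths per kb in the 6 anti-ARID1A lists and 2.87 to 6.82 in the 6 anti-YTHDF1 lists. On this measure the antibodies did not overlap, and the share of all genes without overlap on it was not computed. On log2(share + 0.1) the anti-ARID1A mean was lower by a difference of -1.57 ± 0.159 (SE, adjusted p = 0.000267, limma), beside 9.59% of all genes lower and 17.3% higher. A site at -7046 to -4580 bp of the start, inside TRIP13 (chr5:897381-899847), carried part of this signal. Its peak ranked at percentiles 87.8 to 99.8 in 6 of 6 anti-YTHDF1 lists and 64.3 to 87.7 in 5 of 6 anti-ARID1A lists. The peaks there carried 44.8 to 266 millionths of the list's signal with anti-YTHDF1 and 0 to 17.0 with anti-ARID1A, a description only because the site was picked by its peaks. Within 1 kb of the first BRD9 start, which adjoins TRIP13, a peak was present in 6 anti-ARID1A and 3 anti-YTHDF1 lists. The site shared by all 12 lists, chr5:853741-856137, lay beyond the far end of the gene, inside ZDHHC11. Its peaks ranked at percentiles 80.4 to 94.5 with anti-ARID1A and 82.5 to 97.6 with anti-YTHDF1, and they cannot be assigned to BRD9 over ZDHHC11.

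BICRA, a scaffold subunit of non-canonical BAF, was the most broadly covered member. Its gene is at chr19:47608196-47703277 on the plus strand. With anti-ARID1A peaks covered 78.8% and 80.2% of the window in WT, 78.5% and 77.0% in YTHDF1-KO and 33.9% and 41.3% in siARID1A cells. With anti-YTHDF1 27.8% and 14.9% was covered in WT, 18.0% and 17.3% in YTHDF1-KO and 23.5% and 24.3% in siARID1A cells. Every anti-ARID1A library lay above every anti-YTHDF1 library, and the siARID1A libraries were the lowest with anti-ARID1A. The median gene was covered to 13.9% to 17.0% in the WT and YTHDF1-KO anti-ARID1A lists and to 5.51% and 7.34% in the siARID1A lists. The first BICRA start lies within the non-coding gene BICRA-AS2. The peak across this start was 7766 to 24104 bp wide in WT and YTHDF1-KO cells with anti-ARID1A and 4697 and 2028 bp wide in siARID1A cells. With anti-YTHDF1 it was 1113 to 4407 bp wide. Of 66134 bp covered in all 4 WT and YTHDF1-KO anti-ARID1A lists, 31.2% was covered in neither siARID1A list, and 18 of the stretches concerned were at least 500 bp long. These stretches too were picked out for their pattern and carry no test. The share was 37.6% for PBRM1, 35.0% for PHF10, 27.5% for BRD7, 17.7% for BRD9 and 0% for ARID2 and BICRAL. It was not computed over all genes. In total the siARID1A anti-ARID1A lists covered 99.0 and 128 Mb, and the WT and YTHDF1-KO anti-ARID1A lists 228 to 266 Mb.

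**Figure D3:**
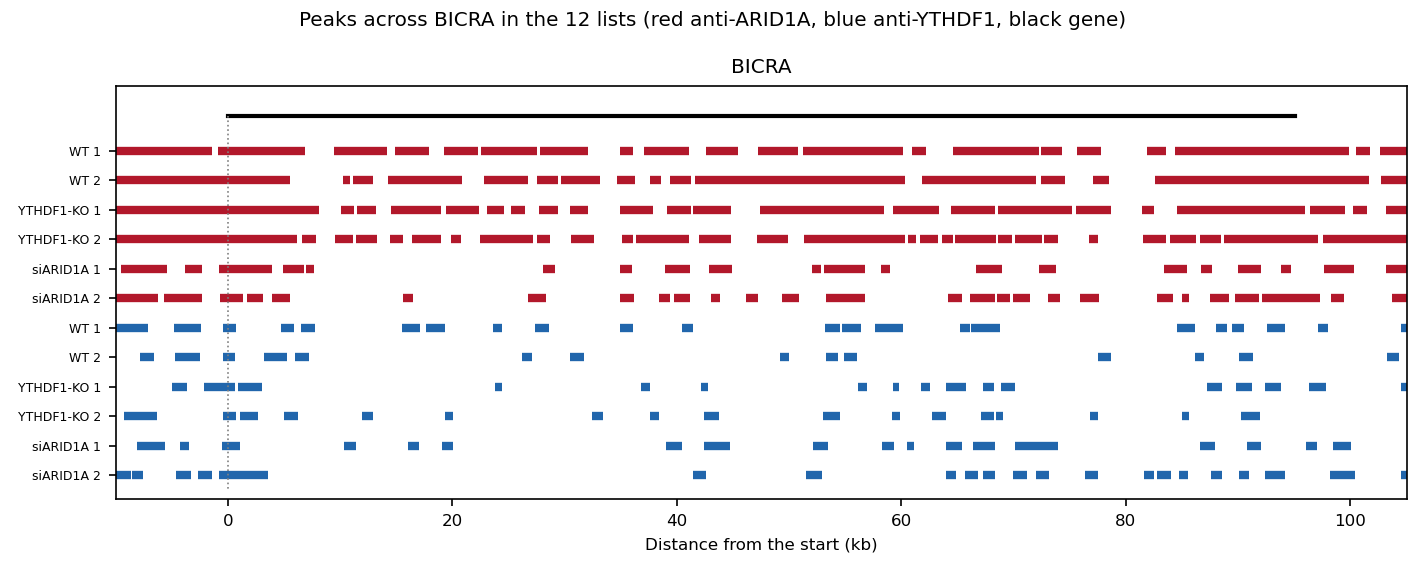
Peaks of the 12 lists (rows, red anti-ARID1A and blue anti-YTHDF1) against distance in kb from the first BICRA start, with the gene as a black bar. The 4 WT and YTHDF1-KO anti-ARID1A rows are nearly continuous (77.0% to 80.2% covered), the siARID1A anti-ARID1A rows are broken up (33.9% and 41.3%), and the anti-YTHDF1 rows cover 14.9% to 27.8%.

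BICRAL, the paralog of BICRA, showed a narrow pattern. The gene is at chr6:42746339-42868556 on the plus strand. Peaks at the first start, which adjoins the gene TBCC, ranked at percentiles 88.3 to 94.9 with anti-ARID1A and 71.6 to 95.1 with anti-YTHDF1. At the inner start, which also adjoins the non-coding gene LOC401261, the shared stretch chr6:42782118-42783785 had anti-ARID1A peaks at percentiles 63.9 to 86.6 in 6 of 6 lists and anti-YTHDF1 peaks in 0 of 6. Coverage of the BICRAL window with anti-ARID1A was 6.64% and 8.84% in WT, 5.92% and 8.17% in YTHDF1-KO and 2.89% and 3.59% in siARID1A cells. With anti-YTHDF1 it was 0.733% and 0.895% in WT, 0.687% and 1.79% in YTHDF1-KO and 1.25% and 1.2% in siARID1A cells. All 6 anti-ARID1A libraries were above all 6 anti-YTHDF1 libraries, beside 25.6% of genes. Both siARID1A anti-ARID1A libraries were below the other 4, as for PBRM1, BRD7, BRD9 and BICRA, with no share over all genes computed. The anti-ARID1A peaks at both of these starts were still present in siARID1A cells.

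**Figure D4:**
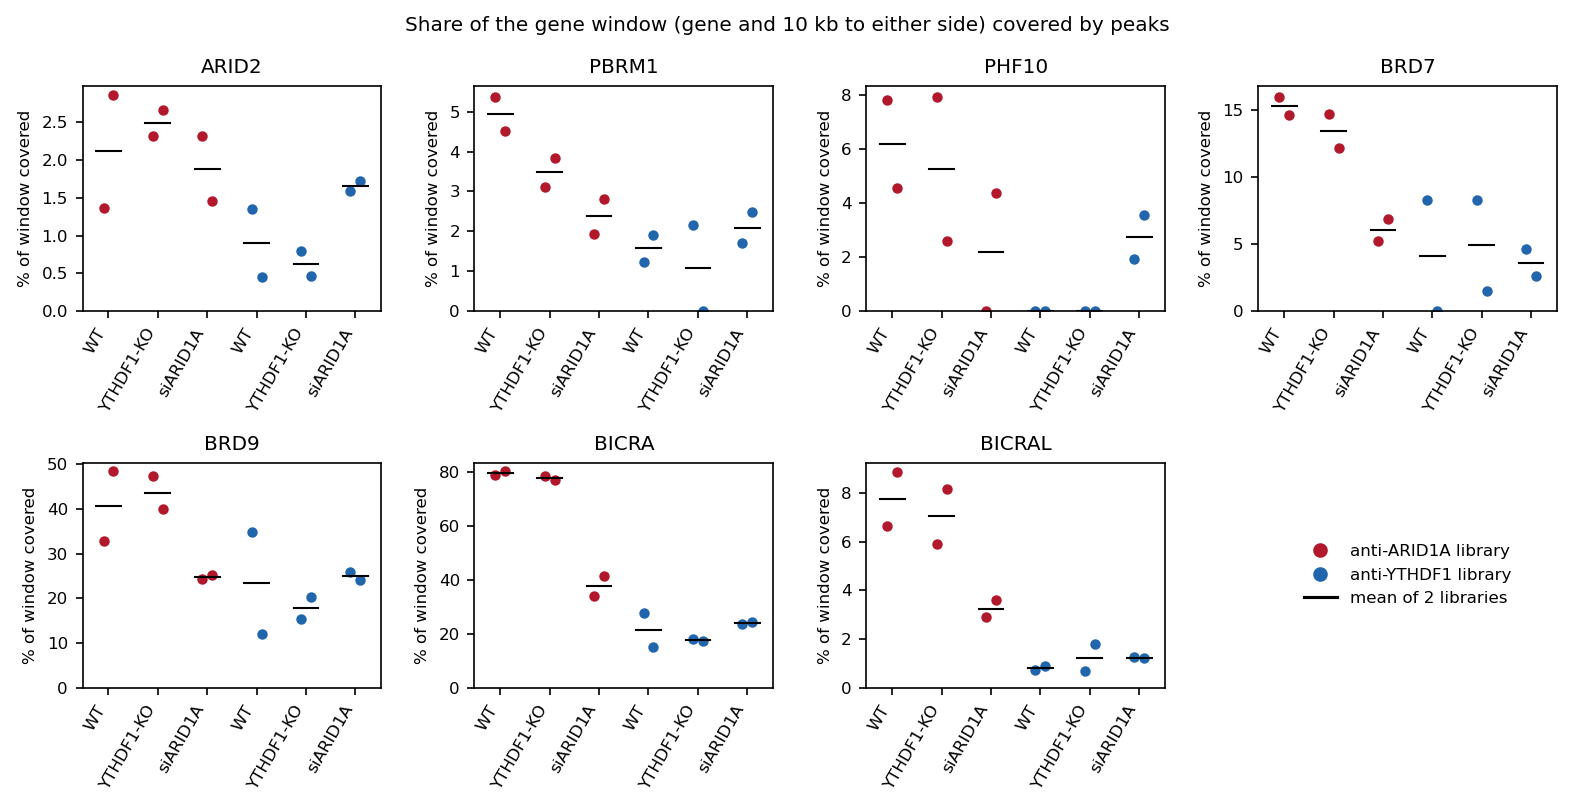
Share of each gene window covered by peaks (%, vertical axes start at 0 and differ between genes) in each library, by cell condition, with the mean of 2 libraries as a bar. BICRA and BICRAL are the members whose 6 red points all lie above the 6 blue ones; PHF10 is at 0 in 4 blue libraries.

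Between antibodies, all 7 members had more covered length with anti-ARID1A (limma on log2 of covered bp per kb plus 10, adjusted p under 0.05), beside 78.1% of the 18364 genes tested higher and 0.534% lower, so the members moved as most genes did. The median log2 difference was 1.54 over the members and 1.27 over all genes. BICRA was higher by 1.54 ± 0.173 (SE, adjusted p = 0.00016, limma) and BICRAL by 1.69 ± 0.25 (adjusted p = 0.000422). PHF10 was higher by 1.55 ± 0.429 (adjusted p = 0.00837) and BRD7 by 1.54 ± 0.549 (adjusted p = 0.026). PBRM1 was higher by 0.89 ± 0.316 (adjusted p = 0.0258), BRD9 by 0.72 ± 0.26 (adjusted p = 0.0277) and ARID2 by 0.64 ± 0.244 (adjusted p = 0.0344). BICRA and BICRAL were the 2 members whose antibodies did not overlap, beside 25.6% of genes. With each library centred on its median gene, no member was higher and ARID2 (-0.89, adjusted p = 0.0211) and BRD9 (-0.81, adjusted p = 0.00693) were lower, so the direction for these members depends on the scaling. That scaling left 5.58% of all genes called higher and 24.3% called lower, and the median gene at -0.27. Leaving out 1 library at a time, the calls for BICRA, BICRAL and PHF10 held without each of the 12, while ARID2, BRD7, BRD9 and PBRM1 each lost theirs without 5 to 7 of the libraries. PHF10 lost its call over the gene body alone (0.45, adjusted p = 0.195), with lists of equal length (0.63, adjusted p = 0.39), in the upper part of each list (0.89, adjusted p = 0.247), by share of signal (0.64, adjusted p = 0.218) and when centred (0.02, adjusted p = 0.982). The exact permutation test gave PHF10 an adjusted p of 0.0529. BICRAL lost its call by share of signal (0.57, adjusted p = 0.0928) and when centred (0.15, adjusted p = 0.71), and BICRA when centred (0.0053, adjusted p = 0.979). The count of members called dropped to 4 without the second WT, either YTHDF1-KO or the second siARID1A anti-ARID1A library, or without the first siARID1A anti-YTHDF1 library.

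Within cell conditions, 4 members passed in WT (PHF10, BRD7, BICRA and BICRAL; background 59.9%) and 5 in YTHDF1-KO cells (ARID2, PHF10, BRD9, BICRA and BICRAL; background 66.9%), and 0 were lower in either, beside 0.207% and 0.294% of genes. In siARID1A cells 0 passed by limma, beside 0.512% of genes called higher and 0.0708% lower. At an unadjusted p under 0.05 limma gave 0 of 7 members there, beside 16.2% of genes.

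With siARID1A, anti-ARID1A coverage was below WT in both libraries for 6 of 7 members, beside 73.6% of genes, and for ARID2 the groups overlapped. It was above WT in both for 0 members (background 1.32%), and 0 members gained (0.447%) or lost (2.29%) all their peaks in both libraries. By limma 0 of 7 passed (background 0.773% lower), and BICRA and BICRAL, 2 of 7, had an unadjusted p under 0.05, beside 30.4% of genes. BICRA differed by -1.07 ± 0.299 (adjusted p = 0.0833), BICRAL by -1.04 ± 0.433 (adjusted p = 0.147) and PHF10 by -1.60 ± 0.744 (adjusted p = 0.176). BRD7 differed by -1.22, PBRM1 by -0.82, BRD9 by -0.67 and ARID2 by -0.08, where the median gene differed by -0.87. With each library centred on its median gene, ARID2 (1.07), PBRM1 (0.33), BRD9 (0.48), BICRA (0.08) and BICRAL (0.11) turned positive, the median gene stood at 0.28, and 3.07% of genes were called higher and 0.229% lower, against 0.0599% and 0.773% without centring. When the 6 anti-ARID1A libraries were fitted alone, BICRA (adjusted p = 0.0148) and BRD7 (adjusted p = 0.0301) were called lower, beside 37.2% of genes. BICRA was also called when the first or the second WT anti-YTHDF1 library was left out of the common fit (adjusted p = 0.0245 and 0.025), and its adjusted p over all alternatives ran from 0.0148 to 0.9.

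With YTHDF1-KO, anti-ARID1A coverage passed for 0 of 7 members by limma and for 0 at an unadjusted p under 0.05, beside 3.71% of genes (called: 0.125% higher and 0.12% lower). The log2 differences ran from -0.41 for PBRM1 to 0.21 for ARID2, and the 95% interval for BICRA was -0.70 to 0.64. PBRM1 and BICRA were below WT in both libraries, beside 21.7% of genes, and 0 members were above it (16.4%). Peaks were gained from none or lost entirely in both libraries for 0 members (backgrounds 1.05% and 0.708%). Between siARID1A and YTHDF1-KO cells, limma called 0 members with anti-ARID1A (background 0.0381% higher and 0.463% lower) and 0 with anti-YTHDF1 (0.403% and 0.0545%), with 1 member each at an unadjusted p under 0.05: BICRA, beside 28.4% of genes, and PHF10, beside 15.5%.

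For anti-YTHDF1, YTHDF1-KO against WT called 0 of 7 members by limma and 0 at an unadjusted p under 0.05, beside 11% of genes (called: 0.12% higher and 0.398% lower). Differences ran from -0.52 for PBRM1 to 0.67 for BRD7, and 0 members separated the groups (backgrounds 7.98% higher, 17.4% lower, 1.97% gained and 2.37% lost). Anti-YTHDF1 peaks were present in the gene windows of ARID2, BRD7, BRD9, BICRA and BICRAL in both knockout libraries. In the second of these libraries the 1 peak of the BRD7 window lay outside the gene, inside ADCY7. Taken singly, the first and second of these libraries held a peak for 74.7% and 72.1% of all genes tested. The share of genes with a peak in both was not computed. For siARID1A against WT, 0 of 7 passed by limma (background 0.0599% higher and 0.0381% lower) and PHF10 alone had an unadjusted p under 0.05 (1.87 ± 0.744, adjusted p = 0.499), beside 8.62% of genes. ARID2, PHF10 and BICRAL were above WT in both libraries, beside 18.2% of genes, and 0 members were below it (7.01%) or lost all peaks (1.21%). PHF10 was the 1 member with a peak in both siARID1A lists and neither WT list, beside 2.72% of genes. The test of whether a condition acted differently with the 2 antibodies called 0 members by limma, for YTHDF1-KO (0 unadjusted, beside 5.84% of genes; called: 0.049% higher and 0.0327% lower) and for siARID1A (2 unadjusted, BICRA and PHF10, beside 24.5% of genes, lowest adjusted p = 0.128; called: 0.0163% higher and 0.212% lower). These comparisons share their WT libraries within each antibody.

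**Figure D5:**
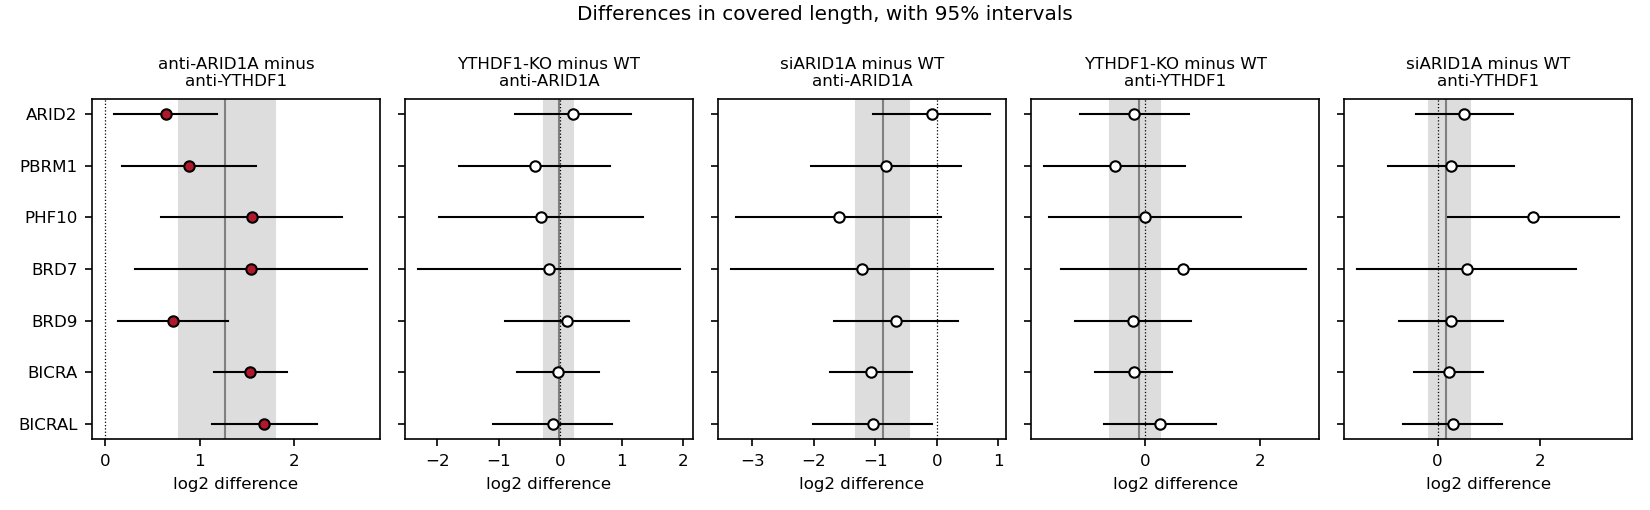
Log2 differences in covered length (points) with 95% intervals (lines) for the 7 members in the 5 comparisons, filled red where the adjusted p is under 0.05; the grey line and band are the median and interquartile range of 18364 genes. All 7 points are red between the antibodies, where the all-gene median is 1.27, and none in the comparisons of a cell condition with WT.

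Of 22 genes for core and canonical BAF subunits, 19 were higher with anti-ARID1A, beside 78.1% of all genes. Their median log2 difference was 1.3, beside 1.27 over all genes. By limma 0 of the 22 were called in each of the 4 comparisons with WT, beside 0.0381% to 0.773% of all genes in either direction. At an unadjusted p under 0.05 there were 0 for YTHDF1-KO and 13 for siARID1A with anti-ARID1A, beside 3.71% and 30.4% of all genes. With anti-YTHDF1 there were 1 and 4, beside 11% and 8.62%. Between the antibodies, the 5 called genes with the highest log2 differences were SMARCA4 (1.94), an ATPase of the complexes, BCL7A (1.78), ACTL6B (1.75), ARID1A (1.60) and DPF2 (1.54). In the siARID1A comparison with anti-ARID1A the median over the 22 was -1.14, beside -1.04 over the members. The genes whose coverage over the 12 libraries was most like the mean of the members were GNRH2, DOHH and ZNF428 (Pearson r of 0.994, 0.993 and 0.993 over 12 libraries). Over 18127 genes the median r was 0.811 and 4036 exceeded 0.9, and all points share the difference in list length between libraries.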

How the data were processed

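The 12 anti-ARID1A and anti-YTHDF1 peak lists, 1 per library, were used. The submitters' processing notes name SEACR 1.3, Bowtie2 2.4.2, deepTools 3.5.2, fastp 0.23.2, bedtools 2.30.0 and SAMtools 1.9, and the build as GRCh38 (hg38). How IgG entered peak calling is not stated in these sources. The authors deposited a total signal and a highest signal per peak, as coverage on a scale of their own in each library. The labels' titles gave groups and replicate numbers.

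Peaks on chromosomes 1 to 22 and X were laid over RefSeq genes (GRCh38.p14). Covered bp per kb of gene and 10 kb to either side, on log2(value + 10), was fitted with limma 3.58.1 in R 4.3.3 (6 groups, trended prior variance), over genes with a peak in at least 2 lists, with Benjamini-Hochberg adjustment and a threshold of 0.05. The fit was also run on simulated data with normal noise and without overall differences between libraries. The real lists differ in overall coverage, so that run does not check the fit in this respect. Log2 differences are on this scale and understate changes of thinly covered genes. Alternatives changed the window, pseudocount, filter, peaks, scaling, measure, block, libraries and test. All 7 members were named, at most 5 other SWI/SNF genes per comparison by size of difference, and the 3 most correlated genes beyond 1 Mb of a member. The members and lists were chosen with earlier results of these data known. Coordinates are 1-based.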

Additional observations from a re-analysis of the deposited data

How the results depend on the processing

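Counts of members called between the antibodies (7) became 3 over the gene body alone, 4 with a pseudocount of 2 bp per kb, 4 with lists of equal length, 2 with each library centred on its median (both lower), 2 by share of total signal (1 higher, 1 lower), and 4 to 6 with 1 library left out. For siARID1A against WT with anti-ARID1A the count (0) became 2 with a pseudocount of 50 bp per kb, 1 with the upper part of each list, 2 with a fit per antibody, and 0 to 1 with 1 library left out. The fit with the replicate number as a block called 7 members between antibodies and 0 in the comparisons with WT; same-numbered libraries shared only a number (correlations of replicate differences -0.03 to 0.03). Between antibodies, signs turned when libraries were centred for ARID2 (-0.89), PBRM1 (-0.64) and BRD9 (-0.81), and by share of signal for PBRM1 (-0.0607) and BRD9 (-1.57). The turned signs that follow were of differences called in neither setting. For YTHDF1-KO with anti-ARID1A they were PHF10 over the gene body (0.0386), BRD7 with peaks at least 50% inside (0.0544), BICRA centred (0.0369), and BICRAL with equal lists (0.47), the upper part of each list (0.55) and share of signal (0.0805). For siARID1A with anti-ARID1A they were ARID2 over the gene body (0.58), in 3 kb windows (0.14), centred (1.07) and by share (0.52), PBRM1 centred (0.33) and by share (0.0292), BRD7 over the gene body (0.12), BRD9 centred (0.48) and by share (0.42), BICRA centred (0.0829), and BICRAL centred (0.11) and by share (0.34). For YTHDF1-KO with anti-YTHDF1 they were ARID2 over the gene body (0.000333) and in the upper part of each list (0.0828), BRD9 in 3 kb windows (0.22) and BICRAL in the upper part (-0.0784). For siARID1A with anti-YTHDF1 they were PBRM1 (-0.18) and BRD9 (-0.83) by share, BICRA in the upper part (-0.00152), centred (-0.0248) and by share (-0.13), and BICRAL over the gene body (-0.0193). With 1 library left out, YTHDF1-KO differences with anti-ARID1A ran from -0.15 to 0.56 for ARID2, -0.97 to 0.35 for PHF10, -0.16 to 0.39 for BRD9 and -0.33 to 0.0811 for BICRAL. For siARID1A with anti-ARID1A, ARID2 ran from -0.43 to 0.27. For YTHDF1-KO with anti-YTHDF1, ARID2 ran from -0.53 to 0.15, PBRM1 from -1.35 to 0.30, BRD7 from -0.94 to 2.28, BRD9 from -0.94 to 0.52, BICRA from -0.62 to 0.23 and BICRAL from -0.10 to 0.62. For siARID1A with anti-YTHDF1, BRD7 ran from -1.04 to 2.17, BRD9 from -0.47 to 0.99 and BICRA from -0.21 to 0.64. The lone library of such a fit is assumed to vary like the other groups. The cause of these changes was not tested. With 2 libraries per group and unknown depth, a window without a peak does not show that binding was absent.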
